A study of Mus musculus with 7 samples.

Results

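Tnrc18 and Bahcc1 are related genes whose proteins end in a BAH domain, and both lay under very long HDAC1 peaks in the mouse limb bud. Peaks were assigned to a gene when they overlapped its body, widened by 10000 bp on each side, by at least 1 bp. By this rule 10 of the 15347 HDAC1 peaks belonged to the 2 genes, 2 to Tnrc18 and 8 to Bahcc1. The genes were chosen by 2 measured values, the length and the list position of their longest peaks, so these, and all that follows from the same peaks, are given as a description without a test.

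Binding of HDAC1 was mapped with ChIP-seq, in which an antibody pulls a protein and its bound DNA out of fixed chromatin, in wild-type Swiss Webster limb buds at E11.5 (40 to 44 somites). Forelimbs and hindlimbs were pooled, and the labels give 3 litters for each sample. The 4 ChIP samples were made with the Abcam antibody ab7028, and the 3 input samples are chromatin of the same tissue and stage without antibody, so no group differed in genotype or treatment. The deposited list holds only peak coordinates, in the rank order of the authors, and was made from all 4 ChIP samples together. In it no peak has a height, a read number or a replicate error, and the depth behind a peak is not known from it. The study describes an enrichment and a false discovery rate for each peak in its source data, which were not used here. A whole limb bud holds mesenchyme, ectoderm and vessels, and the list cannot tell in which cells a peak arose. It holds no expression values, so neither the tissue nor the activity of the 2 genes could be checked.

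HDAC1 removes acetyl groups from histone tails and works as the catalytic subunit of corepressor complexes, although it is also found at active promoters. The BAH domain is a chromatin-reading module. That of BAHCC1 binds histone H3 trimethylated at lysine 27, the Polycomb mark, and that of TNRC18 binds trimethylated lysine 9, the mark of heterochromatin, and both proteins have been linked to gene silencing together with histone deacetylases. HDAC1 at their genes, as measured here, is a separate matter from HDAC1 as a partner of their proteins.

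In the GENCODE basic annotation Tnrc18 (ENSMUSG00000039477.16) is on the minus strand at chr5:142724661-142817662 (mm10), has 1 transcript of 16 exons and spans 93002 bp. Bahcc1 (ENSMUSG00000039741.15) is on the plus strand at chr11:120232947-120292296, has 3 transcripts of up to 28 exons and spans 59350 bp. The long peaks at both genes lay over CpG-containing promoters, and the stretches just before the first exons are printed here because both lie inside those peaks. Capitals mark CpG dinucleotides, the sequences are given in the direction of transcription, and they come from RefSeq (GRCm38.p6, the mm10 sequence). The stretch of Tnrc18, on the minus strand at chr5:142817683-142817873, holds 17 CpGs in 191 bases. That of Bahcc1, on the plus strand at chr11:120232697-120232869, holds 11 in 173 bases.
Tnrc18 promoter: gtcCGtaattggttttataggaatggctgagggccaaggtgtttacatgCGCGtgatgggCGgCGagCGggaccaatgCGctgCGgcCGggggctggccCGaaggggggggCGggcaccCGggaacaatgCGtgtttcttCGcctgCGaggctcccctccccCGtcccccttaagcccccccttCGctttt
Bahcc1 promoter: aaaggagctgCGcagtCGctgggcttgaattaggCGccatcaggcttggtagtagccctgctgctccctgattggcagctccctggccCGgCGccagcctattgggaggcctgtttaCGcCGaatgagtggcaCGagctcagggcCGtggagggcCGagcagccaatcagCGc

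Over the full 250 bases before the RefSeq start, the Tnrc18 promoter held 20 CpGs and the Bahcc1 promoter 19, against a median of 6 over 32544 RefSeq promoters. Their GC contents were 61.6% and 65.2%, with a median of 52.4% over all promoters. Neither held GACCACCCA, the consensus of the GLI transcription factors of Hedgehog signalling, on either strand. The same letters were found in 71 of the 32544 promoters (0.218%), so their absence here describes only these windows.

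The longest peak of Tnrc18 was at list position 6 and covered chr5:142812500-142823899, a length of 11400 bp. It reached from 6237 bp upstream of the GENCODE start to 5162 bp downstream of it. The only other Tnrc18 peak, at position 5624, was 600 bp long and lay 1000 bp further into the gene, from 6163 to 6762 bp after the start. Tnrc18 was thus marked by a single long interval centred near its first exon and a short one beside it.

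At Bahcc1 the longest peak was at list position 4 and covered chr11:120232400-120241449, a length of 9050 bp. It reached from 547 bp upstream of the start to 8502 bp downstream. A further long peak, at position 32, covered 3250 bp from 4347 to 1098 bp upstream and was separated from the longest by 550 bp. The other 6 Bahcc1 peaks were short, from 150 to 550 bp, and lay between position 5517 and position 14494. Bahcc1 thus had a chain of close peaks, with gaps of 200 to 700 bp. Tnrc18 had 1 long peak and a short one 1000 bp away, a wider gap than any in that chain.

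The short peaks of Bahcc1 fell on both sides of the long ones. Upstream, a 500-bp peak lay between 8047 and 7548 bp before the start and a 450-bp peak between 4997 and 4548 bp before it. Inside the gene, peaks of 500, 350 and 150 bp followed the longest peak at gaps of 300, 200 and 700 bp and ended 10702 bp after the start. The last peak, of 550 bp, stood apart at 32403 to 32952 bp after the start, with 21700 bp free of peaks before it.

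**Figure D1:**
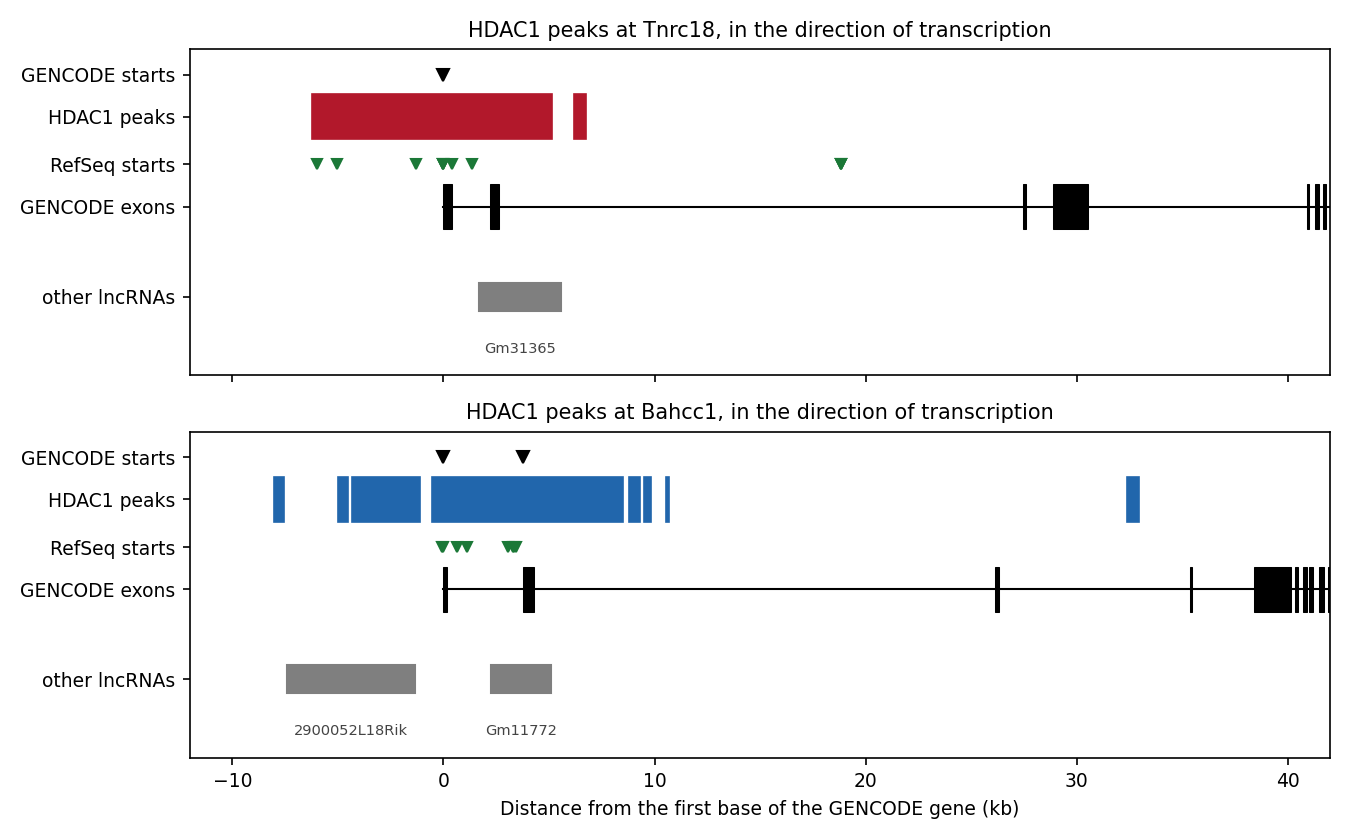
HDAC1 peaks at Tnrc18 (red) and Bahcc1 (blue) against distance from the first base of the GENCODE gene in kb, in the direction of transcription, with GENCODE starts, RefSeq starts, GENCODE exons and overlapping long noncoding RNAs. The long Tnrc18 peak lies on both sides of the start, while the longest Bahcc1 peak begins 547 bp before the start and most of its 9050 bp lie inside the gene.

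Sequences of 3 peaks outside the promoters are shown because they carry the contrast in base composition described further on. The first is the centre of the short intronic Tnrc18 peak at position 5624, on the minus strand at chr5:142811125-142811274, with 2 CpGs in 150 bases. The second is the centre of the isolated intronic Bahcc1 peak at position 5517, on the plus strand at chr11:120265550-120265699, with 1 CpG. The third is the whole of the shortest Bahcc1 peak, at position 14494 and chr11:120243500-120243649, with 4 CpGs.
Tnrc18 peak at list position 5624: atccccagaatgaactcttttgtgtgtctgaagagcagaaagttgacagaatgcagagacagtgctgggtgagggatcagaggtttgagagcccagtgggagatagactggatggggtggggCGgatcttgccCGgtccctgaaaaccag
Bahcc1 peak at list position 5517: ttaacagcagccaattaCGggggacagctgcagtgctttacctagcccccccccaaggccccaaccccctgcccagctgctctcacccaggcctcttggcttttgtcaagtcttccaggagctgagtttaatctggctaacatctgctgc
Bahcc1 peak at list position 14494: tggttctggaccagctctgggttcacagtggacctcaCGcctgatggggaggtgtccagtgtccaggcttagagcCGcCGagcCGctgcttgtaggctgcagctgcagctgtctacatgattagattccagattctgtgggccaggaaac

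By length the Tnrc18 peak was 2nd of 15347 and the Bahcc1 peak shared the 4th place with a 9050-bp peak at position 178. The median peak was 450 bp. Between them stood a 10150-bp peak at position 60, just below them an 8450-bp peak at position 16, and the longest of all had 35050 bp at position 5. Among the first 10 positions, lengths ran from 700 bp to 35050 bp, so an early position did not go with a long peak in every case. The 3250-bp Bahcc1 peak at position 32 was 122nd by length.

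**Figure D2:**
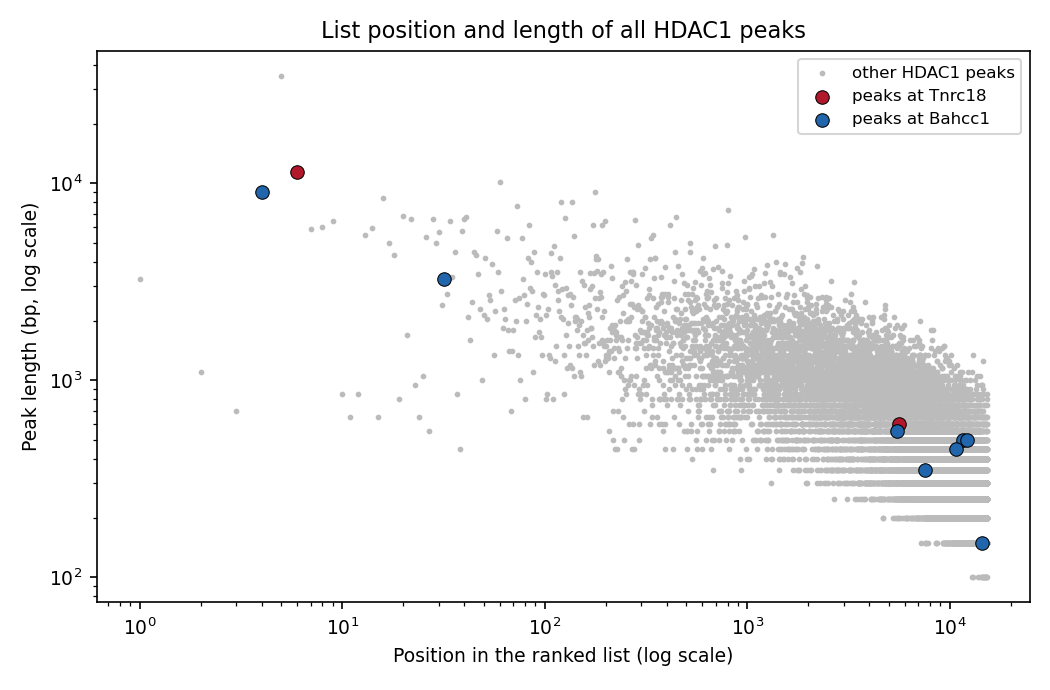
Length in bp against position in the ranked list for all 15347 HDAC1 peaks, both on log axes, with the 2 peaks of Tnrc18 in red and the 8 of Bahcc1 in blue. Of the 10 coloured peaks, 3 lie among the first 32 positions and the other 7 lie at or after position 5517, with lengths of 600 bp or less.

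Both genes together held peaks of very unlike rank. The 3 early peaks were at positions 4, 6 and 32. The other 7 began at position 5517, and 4 of the 8 Bahcc1 peaks fell in the later 50% of the list, whereas neither Tnrc18 peak did. Of the first 50 positions of the whole list, 3 lay within 60000 bp of another of the 50, and these were positions 4, 8 and 32, all around Bahcc1. Position 8 is a 6000-bp peak at chr11:120184600-120190599, whose nearer edge was 42348 bp upstream of Bahcc1, outside the window used here.

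Both genes were compared with all 21938 protein-coding genes of the annotation treated in the same way. At least 1 peak was found at 53.8% of them, at least 2 at 24.6% and at least 8 at 0.369%, and a single peak of at least 5000 bp at 0.269%. Tnrc18 had 12000 bp in peaks, which 23 genes exceeded, and Bahcc1 had 14800 bp, which 16 genes exceeded. Genes with overlapping windows share peaks, as several Hoxa genes above both do with the 35050-bp peak at position 5. The number of separate loci above each gene is therefore smaller. The median was 250 bp over all genes and 900 bp over the 11800 genes with a peak, and the 99th percentile was 4450 bp. These places follow from the choice of the genes.

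The 2 genes differed more in the number of peaks than in the bases covered. The 2 peaks of Tnrc18 were a common number, exceeded by 2138 genes. The 8 peaks of Bahcc1 were exceeded by 58 genes. Gene length was set aside by taking only genes whose body was 0.5 to 2 times as long. Of 4231 such genes for Tnrc18 the median had 600 bp in peaks and 6 had more than Tnrc18. Of 5728 such genes for Bahcc1 the median had 500 bp, 3 had more than Bahcc1 and 14 had at least as many peaks.

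Within the genes, the peaks lay at the 5′ end. Peaks covered 5763 bp (6.20%) of the Tnrc18 body and 10053 bp (16.9%) of the Bahcc1 body. From the last peak to the 3′ end, 86239 bp of Tnrc18 (92.7% of the gene) and 26397 bp of Bahcc1 (44.5%) held none. Within 10000 bp of the 3′ end no peak base lay downstream of either gene. When each body was cut into 10 equal bins, the first bin was 62.0% covered at Tnrc18 and all others were at 0. At Bahcc1 the first bin was 100% covered, the next 60.1% and the 6th 9.27%.

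Both long peaks covered the same parts of their genes. Exon 1 (391 bp in Tnrc18, 161 bp in Bahcc1), intron 1 (1826 and 3752 bp) and exon 2 (431 and 398 bp) lay wholly inside, and both peaks ended in intron 2. Intron 2 is long in both genes, with 24825 bp in Tnrc18 and 21814 bp in Bahcc1. Peaks covered 3115 bp (12.5%) of it in Tnrc18 and 5192 bp (23.8%) in Bahcc1. Exon 3, which begins 27473 bp after the start of Tnrc18 and 26125 bp after that of Bahcc1, held no peak, and neither did any later exon. Of all exons, 2 of 16 in Tnrc18 and 2 of 28 in the longer Bahcc1 transcripts were covered.

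In the GENCODE basic transcripts translation begins inside the long peaks, in exon 2 of Tnrc18 and of the 28-exon Bahcc1 transcripts. The 27-exon Bahcc1 transcript has the same first coding base, in its exon 1. Coding transcripts of fuller annotations that start beyond the Tnrc18 peak are not counted here. The first coding base was 2461 bp after the start of Tnrc18 and 4133 bp after that of Bahcc1. The peaks ran on for 2701 bp and 4369 bp beyond it. They covered 187 of the 5265 coding bases of Tnrc18 (3.55%) and 178 of the 7929 of Bahcc1 (2.24%). All later coding exons, which encode most of both proteins, were outside the peaks. The GENCODE basic transcript of Tnrc18 is shorter than RefSeq transcripts of up to 30 exons, and the further exons of these at the 3′ side held no peak either.

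The 7 short peaks and the 3250-bp peak had no exon base in the GENCODE basic annotation. The 600-bp peak of Tnrc18 and 3 short peaks of Bahcc1 lay in intron 2. The isolated 550-bp peak of Bahcc1 lay in intron 3, a 9055-bp intron, of which it covered 6.07%. Over all peaks of the list, 61.6% had at least 1 base on an exon of a protein-coding gene, against 2 of these 10. Peaks of 1 gene are not independent draws from the list, so no test was made.

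Summed over all peak bases, Tnrc18 had 822 bp on exons (6.85%), 4941 bp in introns (41.2%) and 6237 bp upstream (52.0%). Bahcc1 had 720 bp on exons (4.86%), 9333 bp in introns (63.1%) and 4747 bp upstream (32.1%). Coding bases made up 1.56% and 1.20%. Over all peaks of the list 32.6% of bases were on exons, and over the 41 peaks of at least 5000 bp 27.1%. In this annotation the low share on exons was thus common to both genes, while the balance of intron and upstream bases went opposite ways. With RefSeq exons, which include predicted transcripts, the share rose to 36.9% at Tnrc18 and 10.2% at Bahcc1.

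All starts of both genes in the GENCODE basic annotation lay in the long peaks. The full GENCODE annotation places some starts of both genes outside them, and RefSeq some starts of Tnrc18. The peak near the start is defined here as one within 2000 bp upstream to 1000 bp downstream of a basic GENCODE start, which held for 70.1% of all peaks in the list. It held for 1 of the 2 peaks of Tnrc18 and 2 of the 8 peaks of Bahcc1, those at positions 4 and 32. A start itself lay inside 44.3% of all peaks and inside 1 peak at each gene. Bahcc1 has a further basic start 3752 bp into the gene, and it lay in the same 9050-bp peak.

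RefSeq lists more starts than GENCODE at both genes. All 8 RefSeq starts of Bahcc1, from 77 bp before to 3428 bp after the GENCODE start, lay in the 9050-bp peak. At Tnrc18 8 of 11 lay in the 11400-bp peak. These 8 run from 6006 bp before the GENCODE start to 1346 bp after it. The 3 others lie 18815 to 18817 bp into the gene, at least 12053 bp from a peak. In both genes only the RefSeq start that equals the GENCODE start has a transcript that is not predicted. All other RefSeq starts, inside and outside the peaks, rest on predicted transcripts. With all GENCODE transcripts, 2 of 7 starts of Tnrc18 and 3 of 4 of Bahcc1 were in a peak. The 5 Tnrc18 starts outside lay 17225 to 80981 bp into the gene. One of them, 29139 bp into the gene and 22377 bp from a peak, belongs to a coding transcript of 25 exons. The Bahcc1 start outside lay 56846 bp into the gene, 15507 bp from a peak, and does not belong to a coding transcript.

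The outermost RefSeq start changes the picture of the upstream part of the Tnrc18 peak. It belongs to a predicted transcript and lies at position 142823668 of chromosome 5, only 231 bp inside the 5′ edge of the peak. Counted from there, 2.03% of the peak was upstream, against 54.7% from the GENCODE start. The outermost RefSeq start of Bahcc1 lies 470 bp inside its peak, and the upstream share went from 6.04% to 5.19%. Counted from the outermost RefSeq starts, both long peaks therefore began shortly before the gene and ran into it, for 11169 bp at Tnrc18 and 8580 bp at Bahcc1. Whether these predicted starts are used in the limb bud was not tested, since the list holds no RNA.

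The 150 bases before this outermost Tnrc18 start, on the minus strand at chr5:142823669-142823818, are shown because they lie inside the 11400-bp peak, near its 5′ edge. They hold 6 CpGs, fewer than the stretches before the first GENCODE exons.
Tnrc18 outermost RefSeq start: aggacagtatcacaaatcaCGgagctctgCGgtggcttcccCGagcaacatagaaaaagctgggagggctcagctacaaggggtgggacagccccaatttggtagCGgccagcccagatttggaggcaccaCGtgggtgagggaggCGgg

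Other transcripts share the peaks and limit which gene a peak can be assigned to. At Bahcc1, the 3250-bp peak at position 32 covered all 1784 bp of the GENCODE model of 2900052L18Rik, a noncoding RNA on the opposite strand whose start lies 1362 bp upstream of that of Bahcc1, so it covered a noncoding start and no coding one. The RefSeq model of this RNA is 6089 bp long, with its start in the same peak and 57.0% of it in peaks. The 9050-bp peak covered all of Gm11772, an antisense RNA of 889 bp within intron 1 in GENCODE and of 2853 bp, reaching across exon 2 into intron 2, in RefSeq. At Tnrc18, RefSeq alone lists Gm31365, a 3900-bp noncoding RNA on the opposite strand, of which 89.6% lay in peaks. Its own start was outside them.

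The long peaks were set beside the other peaks of at least 5000 bp. Of 41 such peaks 38 held a coding start and 28 held that of exactly 1 coding gene. From GENCODE starts, the median share upstream over these 28 was 18.5%, with a range from 1.64% to 71.3%. The Tnrc18 peak had 54.7% upstream and stood 3rd from the top, below the peaks at Setd1b (71.3%) and Hoxd10 (67.7%). The Bahcc1 peak had 6.04% upstream, and 4 peaks had a lower share. By base pairs, no other of the 28 reached as far upstream as Tnrc18 (6237 bp) and none as far downstream as Bahcc1 (8503 bp). The comparison with long peaks was chosen after the values were seen.

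With outermost RefSeq starts the order among the 28 turned. Tnrc18 then had the longest downstream extent (11169 bp) and Bahcc1 the third longest (8580 bp), and 22 and 19 of the 28 peaks reached further upstream. The outermost start moved by 6006 bp at Tnrc18 and by 77 bp at Bahcc1, with a median of 64 bp over the 28 genes. It moved further than at Tnrc18 for 2 of the genes, and there it lay before the peak.

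**Figure D3:**
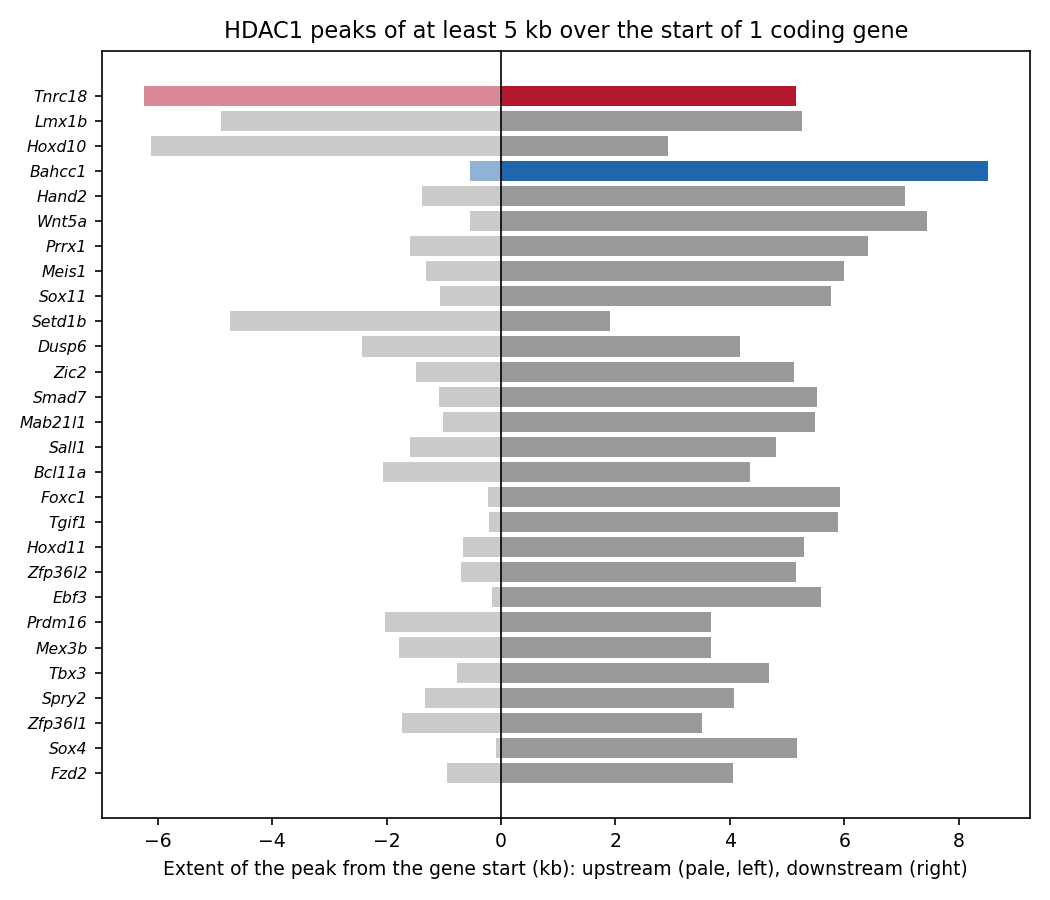
Extent in kb of the 28 HDAC1 peaks of at least 5 kb that hold the GENCODE start of exactly 1 protein-coding gene, upstream (pale, left) and downstream (right) of that start, ordered by length, with Tnrc18 in red and Bahcc1 in blue. Tnrc18 reaches furthest upstream, 6237 bp, and Bahcc1 furthest downstream, 8503 bp.

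The genes under these long peaks were mostly short. The median gene body among the 28 was 8826.5 bp, and the peak covered a median of 65.0% of it. The Tnrc18 peak covered 5.55% of its gene and the Bahcc1 peak 14.3%. The body was longer at 4 of the other genes than at Tnrc18 and longer at 7 than at Bahcc1. Both peaks were among the 21 of the 28 that ended inside the gene, while 7 ran past its end. The share of the peak on exons was 7.21% at Tnrc18 and 7.96% at Bahcc1, against a median of 21.3% with GENCODE exons. With RefSeq exons it was 38.9% at Tnrc18 and 16.7% at Bahcc1, against a median of 37.3%, so the Tnrc18 share was low in GENCODE only.

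Base composition was similar at the 2 long peaks and lower in CpG than in most HDAC1 peaks. The Tnrc18 peak had a GC content of 57.2% and 5.04 CpGs per 100 bp, and the Bahcc1 peak 55.5% and 5.54. The medians were 62.9% and 7.40 over all peaks, 64.7% and 8.67 over the first 1000 positions, and 55.5% and 4.98 over the 41 peaks of at least 5000 bp. Both peaks were closer to the medians of the long peaks than to those of the first 1000 positions. They are themselves among the 41, however, and the median GC content of the 41 is that of the Bahcc1 peak. Long peaks are also mostly early, and the GC content of the Tnrc18 peak lies above the 10th percentile of the first 1000 positions (56.3%). The 3250-bp Bahcc1 peak had 4.62 CpGs per 100 bp. The 7 short peaks had between 1.11 and 3.60, and the sequences from positions 5624 and 5517 printed before show how sparse CpGs were there.

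Within each window, CpGs were denser inside the peaks. Peaks made up 10.6% of the bases of the Tnrc18 window and held 25.1% of its CpGs, at 4.88 per 100 bp inside and 1.74 outside. At Bahcc1 they made up 18.7% of the bases and held 36.7% of the CpGs, at 4.72 per 100 bp inside and 1.87 outside. GC content, by contrast, was 56.8% inside and 51.8% outside at Tnrc18 and 55.2% on both sides at Bahcc1. Neighbouring bases are not independent, so no test was made of these differences.

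The edges of the long peaks were followed in steps of 1 kb from the start. At Tnrc18 CpG number was highest in the first kb of the gene, at 87, and the kb steps lying wholly inside peaks held 23 to 87. Steps without a peak base between 10 kb upstream and 15 kb downstream held 23 or fewer. At Bahcc1 the highest number was 116, in the step from 4 to 5 kb, where most of exon 2 and the first coding base lie. The Bahcc1 peak ran on beyond 5 kb through steps with 27, 14 and 25 CpGs. Among steps wholly inside the long peaks, CpG number thus fell in the 3′ part of both, to 14 at Bahcc1 and to 23 at Tnrc18.

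**Figure D4:**
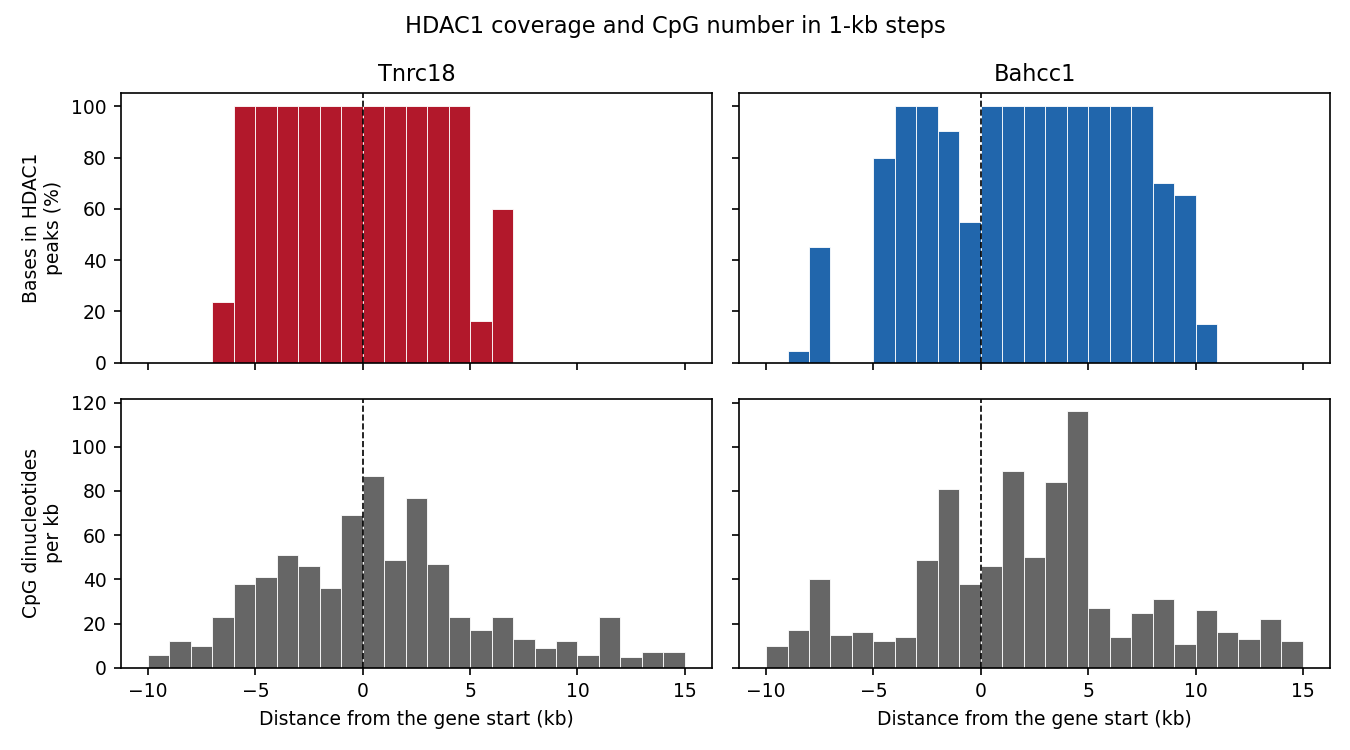
Share of bases in HDAC1 peaks in percent (top) and number of CpG dinucleotides per kb (bottom) in 1-kb steps from 10 kb upstream to 15 kb downstream of the GENCODE start (dashed line) of Tnrc18 (left) and Bahcc1 (right). CpG number peaks at 87 in the first kb of Tnrc18 and at 116 between 4 and 5 kb at Bahcc1, whose coverage continues to 11 kb.

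The 2 long peaks shared no sequence that alignment could detect. A blastn comparison of the 11400-bp and the 9050-bp sequence returned 0 alignments at an E-value of at most 1e-05. The exons they cover hold only the first coding bases, so this says nothing about the relation of the 2 proteins. None of the 10 peaks held GACCACCCA on either strand, which 0.645% of all peaks did.

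How the short gaps are treated decided which gene had the longer interval. As listed, the longest interval was 11400 bp at Tnrc18 and 9050 bp at Bahcc1. With peaks no more than 1000 bp apart merged, it was 13000 bp at Tnrc18, from 2 peaks, and 15700 bp at Bahcc1, from 6 peaks with 13750 bp covered. The merged Bahcc1 region, chr11:120227950-120243649, was then 3rd longest in the genome and the merged Tnrc18 region, chr5:142810900-142823899, was 7th. The list gives no signal between peaks, so how low HDAC1 was in the gaps of 200 to 700 bp within the Bahcc1 chain is not known from it.

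Profiles along the gene body were compared with those of 49 genes with a body of at least 20000 bp and at least 5000 bp of it in peaks. Over 10 bins, the profile of Tnrc18 was most like those of Prrx1 (Pearson's r of 1), Mllt10 (1) and Meis1 (0.999). Prrx1 and Meis1 encode homeodomain transcription factors of limb mesenchyme. That of Bahcc1 was most like those of Lmx1b (0.981), the dorsal limb determinant, and Tbx5 (0.945) and Tbx4 (0.911), T-box factors of the forelimb and the hindlimb. The 2 genes had an r of 0.841 with each other, 14th of 49 for Tnrc18 and 12th for Bahcc1. Values near 1 arise wherever only the first bin is covered, and all points come from the same list. The 49 genes were picked for wide coverage. Whether limb genes were more common among the most similar genes than among all 49 was not tested.

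Beyond the windows, peaks were counted on both sides of each gene. In the 190000 bp beyond the Tnrc18 window, 7 peaks covered 3.55% on the 5′ side and 1 peak covered 0.395% on the 3′ side, and the nearest of these lay 87288 bp from the gene. Around Bahcc1 8 peaks covered 4.50% on the 5′ side and 13 covered 4.81% on the 3′ side, and the nearest lay 13004 bp from the gene. The 5′ sides were thus covered to a similar degree, and the loci differed mainly on the 3′ side.

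The neighbours of the 2 genes are in part alike. An actin gene and a fascin gene, the latter encoding an actin-bundling protein, lie within 200000 bp of each. Peaks were assigned to neighbours by the same rule, the gene body plus 10000 bp on each side, so that adjacent genes can share a peak. Near Tnrc18 these are Actb, with 1650 bp in peaks, and Fscn1, with 4100 bp and a 3300-bp peak at position 346. Near Bahcc1 they are Actg1, with 3700 bp and a 2400-bp peak at position 135, and Fscn2, with none. Of 9 protein-coding neighbours of Tnrc18 5 had a peak, with at most 4100 bp covered. The closest, Slc29a4, a nucleoside and monoamine transporter 2171 bp from the 3′ end, had none. Of 17 neighbours of Bahcc1 16 had a peak, with at most 3700 bp covered, and several of them shared the same peaks. Over all protein-coding genes 53.8% had a peak.

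HDAC1 coverage was lower at the 9 other genes with a BAH domain that were listed for comparison. All 9 had at least 1 peak, against 53.8% of protein-coding genes. Pbrm1, a subunit of the PBAF chromatin remodeller, had 3493 bp in 4 peaks and Rere, an atrophin-like corepressor, had 3150 bp in 6 peaks. Dnmt1, the maintenance DNA methyltransferase, and Orc1, the largest subunit of the origin recognition complex, had 1800 bp each. Ash1l, a histone methyltransferase, had 1550 bp, and Bahd1, a heterochromatin protein, 1100 bp. The NuRD subunits Mta1, Mta2 and Mta3, whose proteins hold HDAC1 in that complex, had 1050, 1750 and 1000 bp. The longest peak at any of the 9 was 1600 bp, at Pbrm1, and none of the 9 reached the 99th percentile of 4450 bp. At all of them but Bahd1, part of the covered bases lay in the flanks. In the gene body alone Rere had the most of the 9, with 2754 bp, Pbrm1 had 712 bp and Orc1 had the least, with 277 bp. Bahcc1 had 10053 bp and Tnrc18 5763 bp there.

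**Figure D5:**
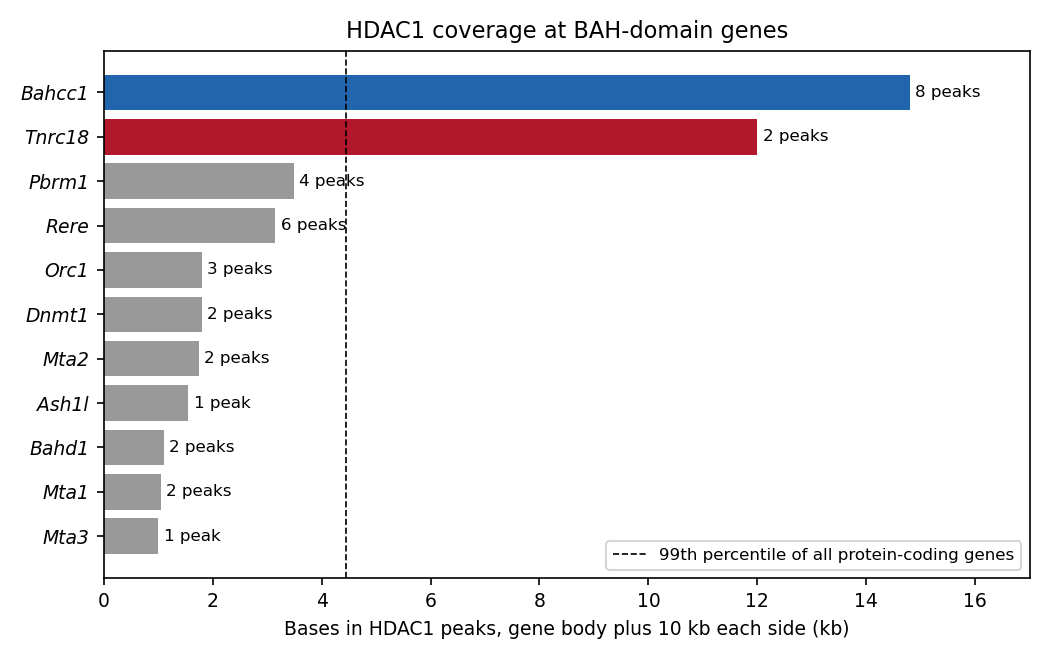
Bases in HDAC1 peaks, in kb, over the gene body plus 10 kb on each side for Bahcc1 (blue), Tnrc18 (red) and 9 other genes with a BAH domain (grey), with the number of peaks beside each bar and the 99th percentile of all protein-coding genes as a dashed line. Bahcc1 (14800 bp) and Tnrc18 (12000 bp) lie beyond the line and the 9 other genes, from 1000 to 3493 bp, lie before it.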

How the data were processed

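HDAC1 ChIP-seq of pooled limb buds was deposited as a single list that gives where each peak starts and ends, and the columns are coordinates in bp, not a signal or a count. The submitters' processing notes name Bowtie2 2.2.5 and mm10. Per its methods, the authors called peaks with CisGenome under a false discovery rate limit and listed them in rank order for all 4 ChIP samples. Depth per peak, and so the precision of a peak edge, is not known from the list. All starts and all lengths were multiples of 50 bp, which sets the step of any edge.

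Coordinates were taken as counted from 1, with the end base part of the peak, a convention not given in the sources used here. They were intersected with the GENCODE M21 basic annotation and, as an alternative, RefSeq GRCm38.p6. A peak counted when it overlapped the gene body, widened by 10000 bp, by at least 1 bp. Percentiles are over 21938 protein-coding genes. Intervals used to judge alternatives are 95% Wilson intervals, which cover at most counting error. Neighbouring bases are not independent, so for shares of bases the intervals are too narrow and serve only to sort the alternatives. Overlap and merging were tested on simulated intervals and matched a base-by-base count in 300 of 300 sets. Python 3.11.15, numpy 2.4.6, pandas 2.3.3, scipy 1.17.1, matplotlib 3.10.9, pysam 0.24.0 and blastn 2.17.0 were used.

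The 2 genes, the gene lists and the rules were chosen with earlier results of these data known. Genes named are both members, the 9 other BAH-domain genes, protein-coding genes within 200000 bp, and the 3 genes with the most similar profile. The long peaks, the overlapping noncoding RNAs, genes of like size and the search for early positions close together were added after the values were seen. No test was run, since the list has no value per sample. Values in the study's supplementary tables were not used.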

Additional observations from a re-analysis of the deposited data

How the results depend on the processing

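No paired analysis was possible because the single list carries no sample or replicate values, and for the same reason no replicate could be left out. Of 68 alternative values for the 2 genes, 47 stayed within 1.5 times the main count or length or within the 95% interval of the main share. These limits only sort the values and do not measure error, since neighbouring bases are not independent. With the gene body only, Tnrc18 had 5763 bp in peaks (percentile 99.8 among protein-coding genes), and Bahcc1 had 5 peaks, 6.79% of bases on exons, 1 peak at a start and percentile 99.95. With a window of 20000 bp the percentile of Tnrc18 was 99.83. Leaving out the later 50% of the list left Bahcc1 with 4 peaks and 5.45% on exons. Merging peaks no more than 1000 bp apart gave 1 peak and 6.32% on exons at Tnrc18, and 3 peaks, 4.30% on exons and 1 peak at a start at Bahcc1. RefSeq exons gave 36.9% and 10.2%, and coding exons alone 1.56% and 1.20%. When a start itself had to be covered, Bahcc1 had 1 peak at a start. Counted from the outermost RefSeq start, an alternative chosen after seeing the data, 2.03% of the longest Tnrc18 peak and 5.19% of the longest Bahcc1 peak lay upstream. The moves follow from what each alternative counts. Bahcc1 had more peaks and more covered bases than Tnrc18 under every alternative run.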

Other observations

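The peak next to Bahcc1 that falls outside its window also had an early position. It is the 6000-bp peak at position 8, and it holds the start and all 4453 bp of the noncoding RNA 2810410L24Rik, which is on the strand opposite to Bahcc1. Between it and the first Bahcc1 peak, which ends 7548 bp before the gene, the list holds no peak. Together with positions 4 and 32 it makes up the only group of the first 50 positions that lie within 60000 bp of each other. These limits were not among the rules set beforehand.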
